A study of Rattus norvegicus with 9 samples.

Results

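Genes of the cell cycle and of DNA replication were followed in blood mononuclear cells of rats before and during experimental pulmonary hypertension. The set lists 44 genes, matched to the deposited table by symbol. Of these, 43 had a line among its 22077 intact genes, and all 43 passed the filter on low counts that left 12447 genes for testing. Ccnb2, a B-type cyclin, has no line under its symbol and was not analysed here. RNA sequencing was done on the mononuclear cells of peripheral blood (PBMC, mainly lymphocytes and monocytes) of wild-type Sprague-Dawley rats. The first group of 3 libraries came from normoxia at day 0, the second group of 3 from Sugen-hypoxia at day 28, and the last group of 3 from Sugen-hypoxia at day 56. Sugen-hypoxia combines a VEGF receptor inhibitor with a period of low oxygen to produce pulmonary hypertension in rats. No normoxia library was taken at day 28 or day 56, so day, age and treatment cannot be told apart, and both treated groups share the same normoxia libraries. The labels used here give no age or sex. Nor do they say whether each replicate is its own animal, so the p-values reflect only how these libraries vary, which may be technical variation.

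A dividing cell first licenses its replication origins by loading the Mcm helicase, then makes deoxynucleotides and copies its DNA in S phase. It next builds up B-type cyclin with Cdk1, assembles a spindle on the kinetochores of its chromosomes, and leaves mitosis when the anaphase-promoting complex, started by Cdc20, marks cyclin and other proteins for destruction. E2F factors drive the replication genes, and the MuvB complex, through a promoter element called CHR (cell cycle genes homology region), drives the later genes. Most lymphocytes and monocytes in blood are resting, so these transcripts are typically scarce there. The members were grouped by role into 16 replication members (10 of origin licensing and helicase, 6 of the replication clamp, nucleotide supply and maintenance methylation) and 27 members of G2 and mitosis. The latter include Ccne2, a cyclin of the G1 to S transition that was grouped with the other cyclins.

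The promoters are shown first because the motif letters of the 2 families differ, a feature taken from the genome and not from the read counts. The families were split by the roles to which E2F and CHR are tied above, so this contrast is not independent of the grouping. RefSeq promoter windows on GRCr8, from 250 bases before to 50 bases after the start, were found for 35 of the 43 members. A single window was kept for each member, while every window of the RefSeq set entered the comparison. The lines below print the 120 bases before the start, 5′ to 3′ on the gene's strand. Capitals mark matches on either strand to CHR (searched as TTTGAA and also as TTTAAA), to the box with the letters CCAAT, or to an E2F motif. The E2F motif was searched in 4 forms, the first being TTCCCGC, another with the letters TTGGCGC, another with the letters TTCGCGC and the last with the letters TTGCCGC. The first 3 are mitotic genes, the next 2 helicase subunits, and Tk1, a member with a large difference in level, held none of the motifs.
Ccnb1 (chr2:33655226-33655345, minus strand): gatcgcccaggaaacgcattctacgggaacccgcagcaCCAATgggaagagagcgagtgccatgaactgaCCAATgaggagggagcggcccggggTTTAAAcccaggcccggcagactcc
Cdc20 (chr5:137255800-137255919, minus strand): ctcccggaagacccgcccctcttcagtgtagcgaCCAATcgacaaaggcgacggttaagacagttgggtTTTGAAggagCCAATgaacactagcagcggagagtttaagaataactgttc
Birc5 (chr10:103572026-103572145, plus strand): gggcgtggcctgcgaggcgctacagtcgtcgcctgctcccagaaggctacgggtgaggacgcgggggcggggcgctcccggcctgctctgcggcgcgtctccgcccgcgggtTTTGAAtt
Mcm5 (chr19:13488693-13488812, plus strand): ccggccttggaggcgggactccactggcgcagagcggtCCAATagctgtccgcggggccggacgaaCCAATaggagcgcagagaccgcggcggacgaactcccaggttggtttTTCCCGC
Mcm3 (chr9:30733747-30733866, minus strand): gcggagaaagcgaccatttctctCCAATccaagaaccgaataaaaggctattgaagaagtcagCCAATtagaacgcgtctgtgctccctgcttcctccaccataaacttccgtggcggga
Tk1 (chr10:103544778-103544897, minus strand): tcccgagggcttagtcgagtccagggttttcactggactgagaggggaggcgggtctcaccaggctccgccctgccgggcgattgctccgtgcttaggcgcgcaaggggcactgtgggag
In Ccnb1, Cdc20 and Birc5 the CHR match began 25, 51 and 8 bases before the start. The E2F match of Mcm5 began 7 bases before the start, and those of Mcm3 began 6 bases before the start and 15 bases into the transcript. The first of these runs past the end of the stretch shown and is left in lower case. For Cenpw and Ndc80, both kinetochore genes, the CHR match lay after the start, and 30 bases around it are shown.
Cenpw (chr1:29353962-29353991, plus strand): actggcggcagaTTCAAAtcaaccgctctg
Ndc80 (chr9:118887486-118887515, minus strand): gccggcggaaatTTTAAAaTTCAAAccgcc
CHR matched in all 22 G2 and mitosis promoters found, in 1 of 13 replication promoters (7.69%, Mcm2) and in 28.3% of the 33469 promoters of the table. E2F motifs matched in 3 of 22 G2 and mitosis promoters (13.6%), in 8 of 13 replication promoters (61.5%) and in 9.52% of all. The CCAAT box matched in 72.7% of the G2 and mitosis promoters and 69.2% of the replication promoters, against 37.5% of all. The 30 CHR matches of the G2 and mitosis members ran from 153 bases before to 34 bases after the start, with a median of 38 bases before it. The letters are a description, not evidence of a bound factor, and a CCAAT match can overlap a CHR or an E2F match.

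**Figure D1:**
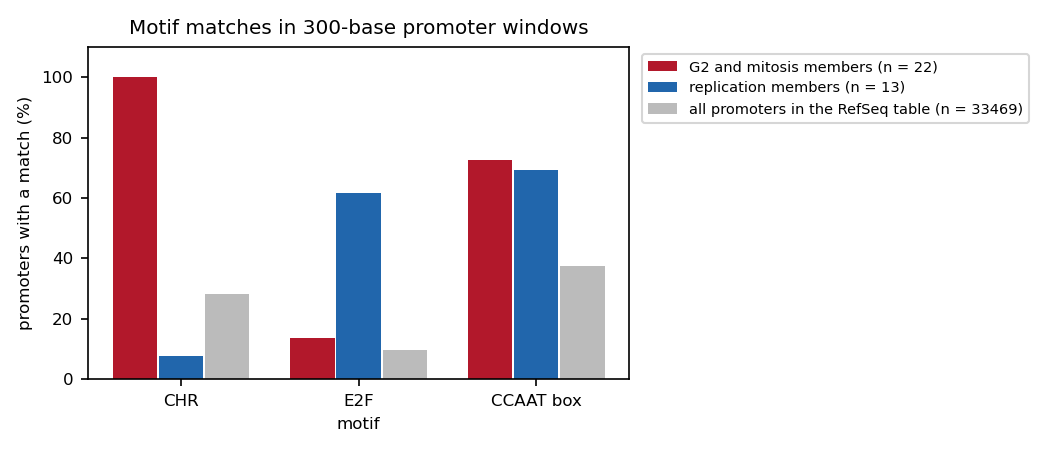
Percentage of 300-base promoter windows (y axis) with at least 1 match to each motif (x axis), for 22 G2 and mitosis members, 13 replication members and all 33469 promoters of the RefSeq table. CHR matched in all 22 of the first set and 7.69% of the second, and E2F motifs in 13.6% and 61.5%.

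Exon reads per library ranged from 22148400 to 39947430, and the 43 members together took between 11521 and 20952 of them. Levels are given in CPM, counts scaled to the exon reads of the library with TMM factors, on which 3 reads correspond to 0.0762 to 0.195 CPM. The T cell gene Cd3e had 4328 to 8229 reads, so T cell RNA was present in every library. Libraries also differed in red cell RNA. Genes of the globin loci took 43.1 to 56.4% of exon reads in normoxia, 1.43 to 29% at day 28 and 40.6 to 44.6% at day 56. The summed level of 14 erythroid markers was 3500 to 9160 CPM in normoxia, 141 to 2120 CPM at day 28 and 4060 to 4610 CPM at day 56. Summed platelet markers were 768 to 3430, 595 to 943 and 1910 to 3760 CPM in the same order. Intron reads made up 5.37 to 14.6% of reads in genes in normoxia, 14.2 to 24.9% at day 28 and 11.9 to 16.9% at day 56. Markers of granulocyte precursors were almost absent, with Ctsg and Ms4a3 at 0 reads in all 9 libraries and Mpo at no more than 9. Of 8 markers of blood stem and progenitor cells, 6 passed the filter, and their sum was 19.2 to 30.4 CPM in normoxia, 20.6 to 25.8 CPM at day 28 and 24.7 to 33.4 CPM at day 56. Of that list Cd34 had at most 3 reads and Hoxa9 at most 1, while Flt3 had 79 to 360 and Myb 224 to 606. Monocyte markers summed to 2050 to 4320, 3160 to 10200 and 1690 to 2660 CPM in the same order, and all 8 tested had a positive log2 fold change at day 28 (median 1.21). Neutrophil markers summed to 47.1 to 101, 105 to 288 and 74 to 120 CPM, with 7 of 8 positive at day 28 (median 1.02). B cell markers summed to 1070 to 1800, 595 to 1120 and 533 to 886 CPM, with 8 of 9 negative at day 28 (median -0.54) and at day 56 (median -0.69). Markers of NK and cytotoxic cells summed to 521 to 943, 355 to 734 and 857 to 1110 CPM, with 8 of 9 positive at day 56 (median 0.56). Plasma cell markers summed to 83.4 to 125, 74.1 to 116 and 122 to 138 CPM. The part of these cell types in the values of the members was not tested. Code numbers in the column headers, whose meaning is not given in the sources used here, also split the libraries. No header names a series, and the libraries were grouped into series here by gaps in those numbers. Normoxia 1 and day 56 replicate 1 share a series, the remaining normoxia and day 56 libraries share another, and the 3 day 28 libraries have their own, so day 28 and its code series cannot be told apart.

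Per exon length, the replication members stood above the mitotic ones. On the authors' RPKM scale (reads scaled by exon length and by mapped reads, with no correction for the globin share), the median of a member over the 9 libraries ran from 0.258 for Cdc6 to 41.5 for Pcna among replication members, and from 0.134 for Ttk to 2.71 for Mki67 among G2 and mitosis members. Pcna, the sliding clamp of the replication fork, was followed by Mcm3 at 21.8, the nucleotide salvage enzyme Tk1 at 15.5 and Mcm7 at 15.2. Of the 16 replication members, 10 exceeded Mki67, the highest of the G2 and mitosis family. The 6 Mcm subunits, which form 1 ring together, had RPKM medians between 4.33 for Mcm5 and 21.8 for Mcm3.

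At day 28, the members were mostly at lower levels than in normoxia, but only 1 passed the test. Cenpw, a small histone-fold protein of the inner kinetochore, fell with edgeR's quasi-likelihood test (adjusted p at 0.05 over all genes tested), and no member rose. By sign alone, 38 members had a negative and 5 a positive log2 fold change, with a median of -0.41 against -0.01 over all genes. The 27 G2 and mitosis members had a median of -0.52, with 26 of them negative, and the 16 replication members a median of -0.18, with 12 negative. Of all genes tested, 0.0402% were called lower and 0.0884% higher at day 28, so single calls were rare everywhere. With an unadjusted p under 0.05 there were 11 members lower, against 16.6% of all genes, and 0 higher, against 12.1%. In 11 members every day 28 library lay below every normoxia library, against 11.8% of all genes, and in 1 member, Mcm5, every day 28 library lay above, against 11.4%. Fewer cells of a dividing type and less RNA per cell cannot be told apart in such bulk samples.

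The count of calls at day 28 depended on single libraries and on the tool. Leaving out normoxia replicate 1 gave 12 members called lower, while 22.2% of all genes were then called lower. Leaving out day 28 replicate 3 gave 3 (Cenpw, Tk1 and Ube2c) against 1.78% of genes. Leaving out any other library gave 0, in fits where at most 1 of all genes was called lower. DESeq2 called 6 members lower (Ccnb1, Cdc20, Cenpw, Ndc80, Tk1 and Ube2c) and 0 higher, where it called 6.97% of all genes lower. Normoxia replicate 1 was the lowest of its group in 31 of the 43 members and normoxia replicate 3 the highest in 27. Summed over the members, the normoxia libraries held 515, 731 and 748 CPM, the day 28 libraries 493, 532 and 474 CPM, and the day 56 libraries 553, 583 and 603 CPM. The day 28 sums therefore reached above the lowest normoxia library, and normoxia replicate 1 lay closer to the treated libraries than to the other normoxia libraries.

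**Figure D2:**
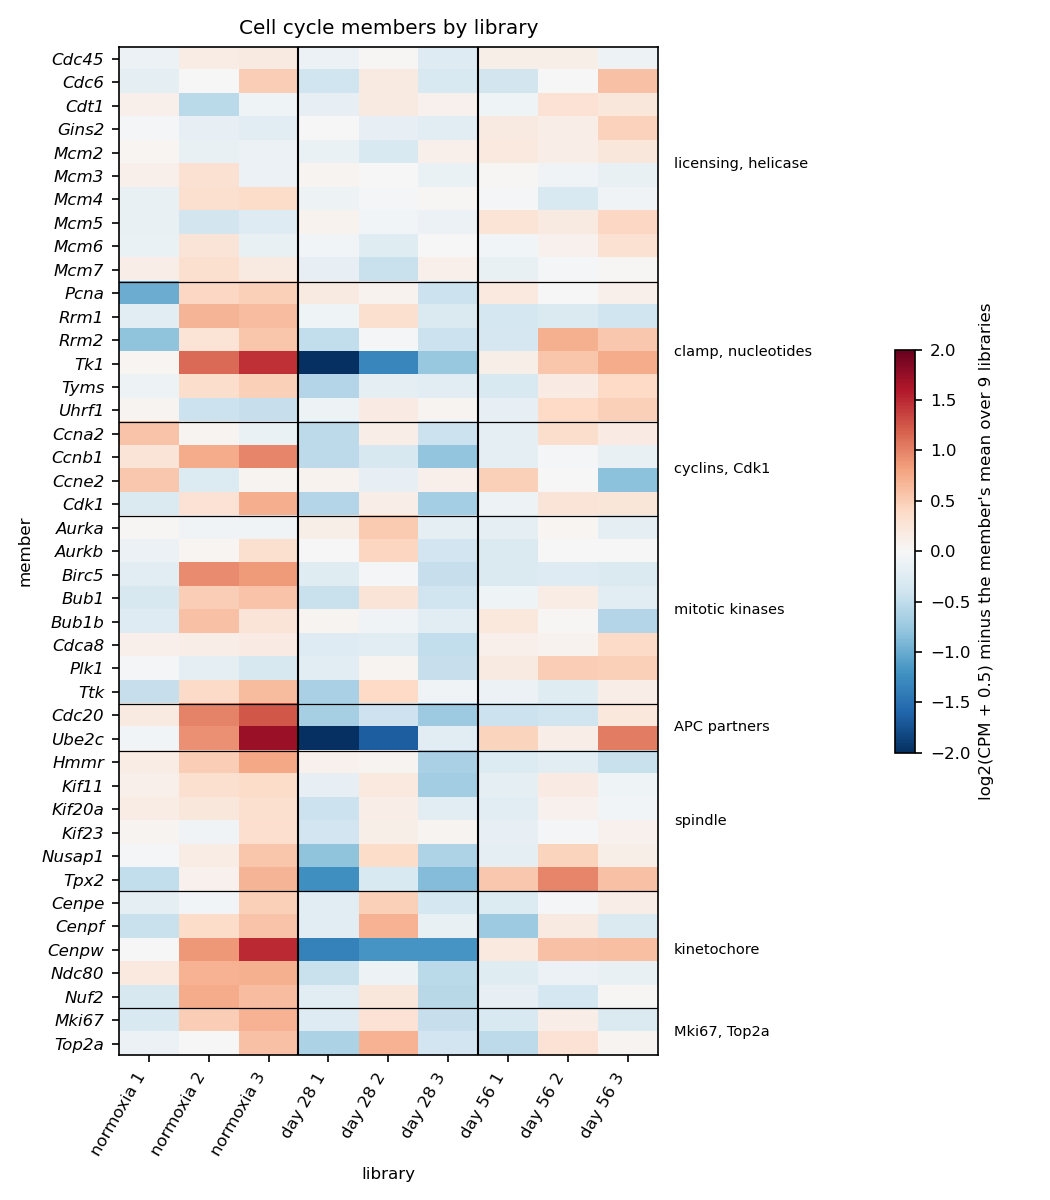
Level of each of 43 members (rows, by role) in each of 9 libraries (columns), as log2(CPM + 0.5) minus the member's mean over the 9 libraries, with colours ending at -2 and 2. Normoxia replicates 2 and 3 are red for most mitotic members, normoxia replicate 1 is paler, and Tk1, Ube2c and Cenpw are blue in the day 28 libraries, with Ube2c paler in replicate 3.

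At day 56, 0 members passed the same test against normoxia, although 3.42% of all genes were called higher and 3.7% lower. Unadjusted p fell under 0.05 for 9 members, 6 lower (Cdc20, Ndc80, Ccnb1, Rrm1, Birc5 and Hmmr) against 17.6% of all genes, and 3 higher (Mcm5, Gins2 and Plk1) against 13.3%. DESeq2 called 6 members lower, the same 6 genes, against 10% of all genes, and called Gins2 and Mcm5 higher, against 8.42% of all genes. Without normoxia replicate 1, 9 members were called lower and 3 higher, against 21.2% and 21.8% of all genes. Leaving out any other library gave 0 calls among the members, with 61 to 335 of all genes called higher and 18 to 304 lower. The median log2 fold change was -0.19 over the members and -0.04 over all genes. The families differed in their signs, since 24 of 27 G2 and mitosis members were negative (median -0.33) while the replication members were split into 8 and 8 (median 0.00). Groups did not overlap for 7 members lower at day 56, against 14.9% of all genes, and for 4 members higher, against 15.6%. The members' shares were 7 and 4 of 43, so they lay near the background.

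Between the treated groups, Cenpw was higher at day 56 than at day 28 and was the single member called. No member was called lower, with an unadjusted p under 0.05 for 7 higher members, against 9.11% of all genes, and for 0 lower members, against 9.38%. Of all genes, 0.426% were called higher and 0.121% lower at day 56. A set of 10 members, Ube2c, Cenpw, Ccnb1, Tk1, Cdca8, Plk1, Gins2, Mcm2, Mcm5 and Tpx2, had every day 56 library above every day 28 library, against 17.8% of all genes, and 0 members had the reverse, against 17.4%. DESeq2 called 4 members higher (Cenpw, Tk1, Tpx2 and Ube2c) against 4.48% of genes, and 0 lower. Without normoxia replicate 1 there were 3 (Cenpw, Tk1 and Tpx2) against 4.57%, and without day 28 replicate 3 there were 2 (Tk1 and Ube2c) against 1.46%. Without normoxia replicate 3 Cenpw was again the 1 member called, with 31 of all genes called higher. Without any of the remaining 6 libraries there were 0, with 2 to 28 of all genes called higher.

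**Figure D3:**
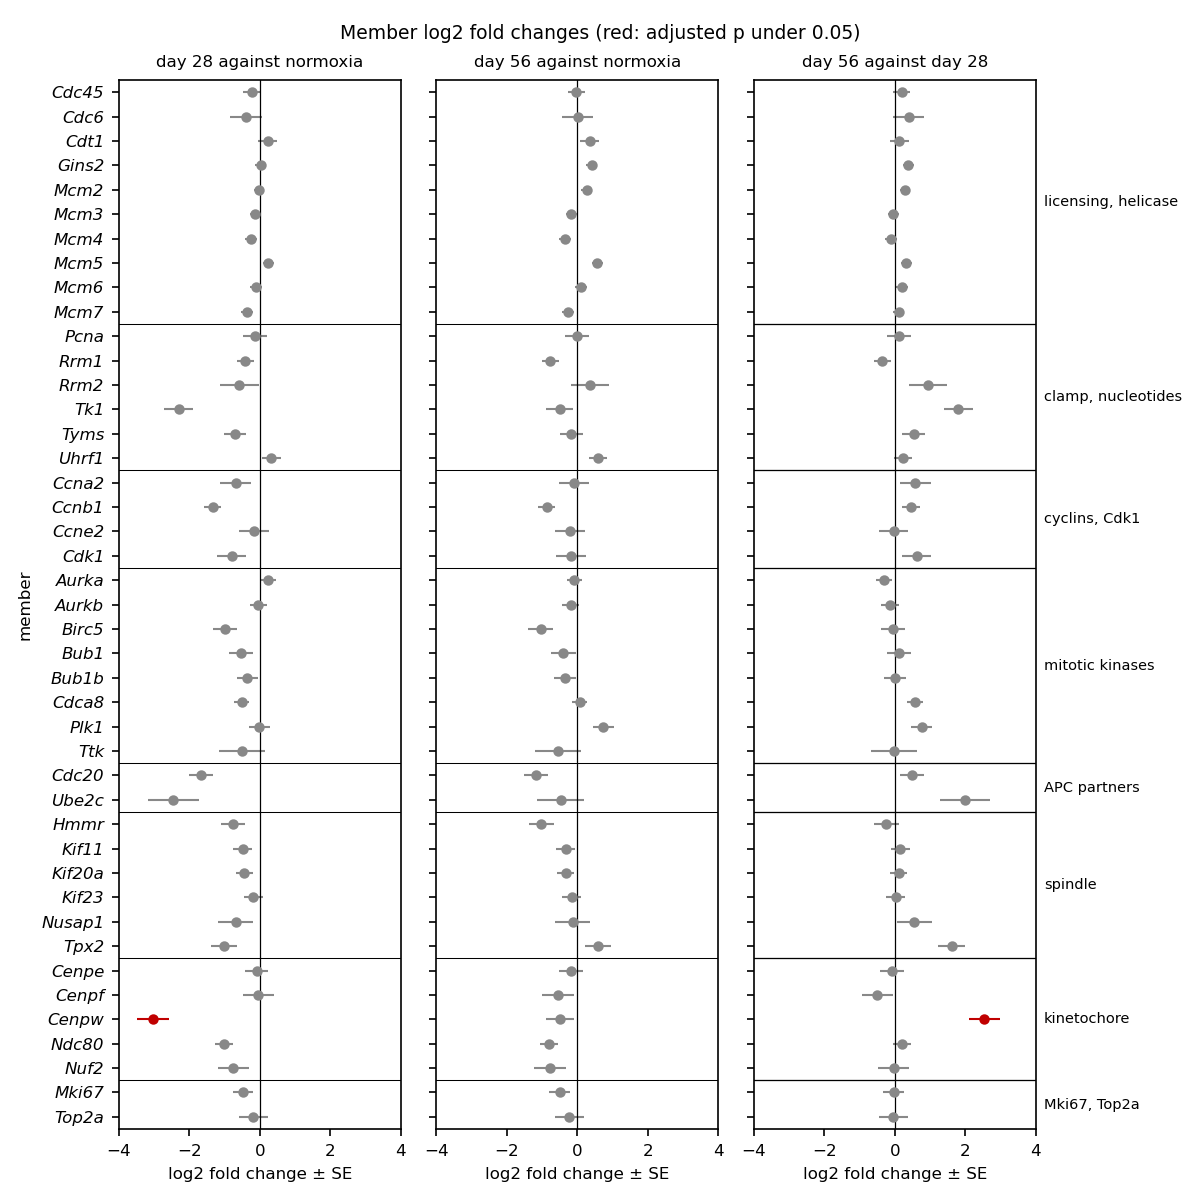
Log2 fold change with its standard error (x axis) for each of 43 members (y axis, by role) in 3 comparisons from the edgeR fit, with members at an adjusted p under 0.05 in red. Cenpw is red at -3.03 for day 28 against normoxia and at 2.54 for day 56 against day 28, and no member is red for day 56 against normoxia, which shares its normoxia libraries with the first panel.

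None of the 10 licensing and helicase members was called, and at day 56 more of them were above than below normoxia, 6 against 4 by sign. Mcm3, a subunit of the replicative helicase and the member of its group with the highest mean CPM, was at 92.3, 106 and 79.0 CPM in normoxia, 88.8, 85.9 and 78.5 CPM at day 28, and 87.4, 81.7 and 77.4 CPM at day 56. The 3 groups overlapped. Over the 10 members of the group the log2 fold changes ran from -0.39 to 0.24 at day 28 and from -0.34 to 0.57 at day 56. Mcm7, another subunit, was at 55.5, 63.5 and 57.3 CPM in normoxia, 45.3, 37.2 and 54.1 CPM at day 28, and 45.8, 49.7 and 51.5 CPM at day 56, so that all 6 treated libraries lay below the 3 normoxia libraries, and it was not called. Mcm5, of the same ring, was picked here after its values were seen. It was at 14.1, 12.1 and 13.1 CPM in normoxia, 16.6, 15.2 and 14.5 CPM at day 28, and 19.1, 18.0 and 21.2 CPM at day 56. The 3 groups did not overlap, with normoxia lowest and day 56 highest. Its log2 fold change at day 56 was 0.57 (SE 0.15, adjusted p = 0.0508 with edgeR), just outside the threshold. The adjusted p ranged from 0.00325 to 0.186 over 20 alternatives and was under the threshold in 5 of them, 1 of which left out normoxia replicate 1. Gins2, part of the GINS complex that joins the helicase at the fork, was at 24.6, 22.6 and 21.9 CPM in normoxia, 25.5, 22.7 and 21.9 CPM at day 28, and 28.7, 27.9 and 35.2 CPM at day 56. Its day 56 libraries lay above the other 6, at a log2 fold change of 0.41 against normoxia (SE 0.15, adjusted p = 0.108 with edgeR). Cdt1 and Cdc6, which load the helicase, and Cdc45, which activates it, had groups that overlapped in all 3 comparisons, and some reads of Cdc45 may belong to Cldn5, which overlaps it.

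None of the 6 clamp, nucleotide and methylation members was called. Pcna was at 31.6, 84.5 and 87.5 CPM in normoxia, 71.5, 66.5 and 46.5 CPM at day 28, and 71.9, 62.6 and 67.6 CPM at day 56. Normoxia replicate 1 was the lowest of all 9 libraries and normoxia replicate 3 the highest, so the groups overlapped. Tk1, thymidine kinase of the salvage pathway, was at 43.1, 92.2 and 116 CPM in normoxia, 9.92, 16.6 and 24.6 CPM at day 28, and 45.5, 61.8 and 70.4 CPM at day 56. Every day 28 library lay below the other 6, and the day 56 libraries lay inside the normoxia range. The log2 fold change of Tk1 was -2.30 at day 28 (SE 0.41, adjusted p = 0.0556 with edgeR) and 1.80 from day 28 to day 56 (SE 0.41, adjusted p = 0.0827 with edgeR), so neither passed. At day 28 the adjusted p of Tk1 passed in 7 of 19 alternatives, among them the fits without normoxia replicate 1 (0.000949) and without day 28 replicate 3 (0.0187), and over all 19 it ranged from 1.17e-05 to 1. Rrm1, the large subunit of ribonucleotide reductase, was at 37.1, 70.3 and 66.6 CPM in normoxia, 41.1, 54.5 and 35.5 CPM at day 28, and 34.1, 35.6 and 32.9 CPM at day 56. Its 3 day 56 libraries were nearly equal and lay below every normoxia library (log2 fold change -0.76, SE 0.25, adjusted p = 0.085 with edgeR). The fit without normoxia replicate 1 gave Rrm1 a log2 fold change of -0.99 at an adjusted p of 0.00238, and no other library left out made it pass. Rrm2, the small subunit, had 0.458 to 1.95 CPM in normoxia and overlapping groups, and only 65.6% of its reads were uniquely mapped, so its values are uncertain. Tyms, the enzyme of thymidylate synthesis, was at 2.08 to 3.37 CPM in normoxia, 1.36 to 1.95 CPM at day 28 and 1.75 to 3.18 CPM at day 56. Uhrf1, which guides maintenance DNA methylation, was at 3.24 to 4.83, 4.28 to 5.25 and 4.07 to 6.64 CPM.

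Among the cyclins, Ccnb1 had the highest mean CPM. This B-type cyclin, the partner of Cdk1 at entry into mitosis, was at 5.75, 8.32 and 9.86 CPM in normoxia, 3.16, 3.71 and 2.53 CPM at day 28, and 4.14, 4.66 and 4.26 CPM at day 56. Every treated library lay below every normoxia library, and every day 28 library below every day 56 library. The log2 fold change was -1.34 at day 28 (SE 0.25, adjusted p = 0.0597 with edgeR) and -0.87 at day 56 (SE 0.25, adjusted p = 0.0628 with edgeR). Leaving out normoxia replicate 1 gave -1.5 (adjusted p = 0.000954) and -1.04 (adjusted p = 0.00414) for Ccnb1, and leaving out any other library gave no call. Cdk1 itself was at 1.25 to 3.05 CPM in normoxia, 0.832 to 1.85 CPM at day 28 and 1.49 to 2.06 CPM at day 56, with overlapping groups. Ccna2 and Ccne2, the cyclins of S phase and its start, also overlapped, and they share genome positions with Exosc9 and Ints8, so some of their reads may belong to those neighbours.

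Both partners of the anaphase-promoting complex were lower in every day 28 library than in any normoxia library. Ube2c, its ubiquitin-conjugating enzyme and the member of the pair with the higher mean CPM, was at 3.91, 8.13 and 14.7 CPM in normoxia, 0.425, 0.965 and 3.49 CPM at day 28, and 5.78, 4.54 and 8.88 CPM at day 56. Day 28 replicate 3 was the highest of its group and lay just under the lowest normoxia library. The log2 fold change of Ube2c was -2.46 at day 28 (SE 0.72, adjusted p = 0.0952 with edgeR) and 1.99 from day 28 to day 56 (SE 0.71, adjusted p = 0.177 with edgeR). Without day 28 replicate 3 these values were -3.66 (adjusted p = 0.0226) and 3.19 (adjusted p = 0.0475), and without normoxia replicate 1 the first was -2.79 (adjusted p = 0.015). Cdc20, the activator of the complex, was at 3.79, 7.03 and 8.44 CPM in normoxia, 1.89, 2.34 and 1.79 CPM at day 28, and 2.31, 2.35 and 3.85 CPM at day 56. Only day 56 replicate 3 of the treated libraries reached normoxia replicate 1. Cdc20 had a log2 fold change of -1.67 at day 28 (SE 0.34, adjusted p = 0.0645 with edgeR) and -1.17 at day 56 (SE 0.34, adjusted p = 0.0638 with edgeR). Without normoxia replicate 1 these were -1.91 (adjusted p = 0.00118) and -1.42 (adjusted p = 0.00375), and Cdc20 was not called when any other library was left out.

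None of the 8 mitotic kinase and passenger complex members was called. Aurkb, the kinase of the chromosomal passenger complex, was at 6.96, 7.88 and 9.67 CPM in normoxia, 7.58, 10.4 and 5.76 CPM at day 28, and 6.12, 7.65 and 7.71 CPM at day 56. The mean over the 9 libraries was 7.74 CPM for Aurkb and for Aurka, the highest of the group. Aurka, the kinase of the spindle poles, was at 7.25 to 7.79, 6.59 to 11.2 and 6.64 to 7.90 CPM in the same order, and the groups of both kinases overlapped. Birc5 (survivin) belongs to the same passenger complex as Aurkb and was at 2.12, 5.30 and 4.93 CPM in normoxia, 2.05, 2.44 and 1.69 CPM at day 28, and 1.98, 2.02 and 1.98 CPM at day 56. All 3 day 56 libraries lay just below normoxia replicate 1 and well below the other normoxia libraries. Its log2 fold change was -0.99 at day 28 (SE 0.34, adjusted p = 0.119 with edgeR) and -1.04 at day 56 (SE 0.35, adjusted p = 0.0866 with edgeR). Birc5 was at -1.28 (adjusted p = 0.0027) and -1.35 (adjusted p = 0.00206) when normoxia replicate 1 was left out. It was not called when any other library was left out, and its day 28 value ranged from -1.28 to -0.44 over the 19 alternatives. Within the header series that holds normoxia 1 the day 56 difference of Birc5 was -0.08 in log2(CPM + 0.5), and within the other series it was -1.17. Cdca8 (borealin), also of that complex, was at 3.83 to 4.02 CPM in normoxia, 2.37 to 2.97 CPM at day 28 and 3.74 to 4.76 CPM at day 56, so day 28 lay below both other groups. Plk1, a kinase that acts from mitotic entry to exit, was at 1.37, 1.18 and 1.04 CPM in normoxia, 1.14, 1.5 and 0.895 CPM at day 28, and 1.68, 2.19 and 2.18 CPM at day 56. It was the 1 mitotic member whose day 56 libraries all lay above all normoxia libraries, and its log2 fold change from day 28 to day 56 was 0.77 (SE 0.30, adjusted p = 0.204 with edgeR). The checkpoint kinases Bub1, Bub1b and Ttk overlapped in all 3 comparisons.

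Spindle members differed among themselves. Kif11, the kinesin that pushes the spindle poles apart and the member of the group with the highest mean CPM, was at 5.62, 6.62 and 6.88 CPM in normoxia, 4.57, 6.04 and 3.04 CPM at day 28, and 4.48, 5.88 and 4.89 CPM at day 56, with overlapping groups. Tpx2, which activates Aurka and nucleates microtubules, was at 3.17, 4.93 and 7.72 CPM in normoxia, 1.70, 3.68 and 2.33 CPM at day 28, and 6.98, 9.62 and 7.21 CPM at day 56. Its day 56 libraries lay above all day 28 libraries, and day 56 replicate 2 lay above all normoxia libraries too. The log2 fold change of Tpx2 was -1.02 at day 28 (SE 0.38, adjusted p = 0.13 with edgeR) and 1.62 from day 28 to day 56 (SE 0.38, adjusted p = 0.087 with edgeR). Without normoxia replicate 1 these were -1.25 (adjusted p = 0.0198) and 1.61 (adjusted p = 0.0295), and neither passed when any other library was left out. Hmmr, a hyaluronan receptor that also binds spindle microtubules, went from 1.92 to 3.24 CPM in normoxia to 0.895 to 1.81 CPM at day 28 and 1.11 to 1.39 CPM at day 56. Both treated groups of Hmmr lay below normoxia, at a day 56 log2 fold change of -1.02 (SE 0.35, adjusted p = 0.0909 with edgeR), or -1.18 (adjusted p = 0.0255) without normoxia replicate 1. No other library left out made Hmmr pass. Nusap1 and Kif23 overlapped between groups. Kif20a was also lower in both treated groups, but only 27.8% of its reads were uniquely mapped and it overlaps Cdc23, so its values are uncertain.

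In the kinetochore group, Cenpw gave the only calls of the set. The gene (ENSRNOG00000042944, rn6 chr1:29915442-29920598 in the authors' table) had 41, 97 and 89 reads in normoxia, 14, 19 and 15 at day 28, and 55, 68 and 86 at day 56. On the TMM scale this was 1.71, 3.57 and 5.78 CPM in normoxia, 0.372, 0.482 and 0.480 CPM at day 28, and 2.05, 2.86 and 2.88 CPM at day 56. The day 28 libraries lay close together and far below the other 6, while day 56 lay inside the normoxia range. The log2 fold change was -3.03 at day 28 (SE 0.45, adjusted p = 0.0464 with edgeR), 2.54 from day 28 to day 56 (SE 0.44, adjusted p = 0.0448 with edgeR) and -0.49 at day 56 against normoxia (SE 0.40, adjusted p = 0.425 with edgeR). The day 28 call of Cenpw was lost in 11 of 19 alternatives. It was lost when any 1 of 7 libraries was left out, with values from -2.56 to -3.09 and adjusted p from 0.0978 to 0.169, and was kept without normoxia replicate 1 or day 28 replicate 3. The call between the treated groups was also lost without any 1 of 7 libraries, with values from 2.40 to 2.68 and adjusted p from 0.0503 to 0.173, and was kept without normoxia replicate 1 or 3. Ndc80, which couples kinetochores to microtubules and had the highest mean CPM of the group, was at 4.37, 6.40 and 6.42 CPM in normoxia, 2.61, 3.48 and 2.43 CPM at day 28, and 3.10, 3.40 and 3.32 CPM at day 56. All 6 treated libraries lay below the 3 normoxia libraries. Its log2 fold change was -1.01 at day 28 (SE 0.25, adjusted p = 0.0799 with edgeR) and -0.81 at day 56 (SE 0.25, adjusted p = 0.0695 with edgeR), and without normoxia replicate 1 it was -1.14 (adjusted p = 0.00341) and -0.95 (adjusted p = 0.00747). When any other library was left out, Ndc80 was not called. Nuf2, which pairs with Ndc80 in the same complex, was at 0.875, 2.36 and 2.14 CPM in normoxia, 0.984, 1.5 and 0.672 CPM at day 28, and 1.04, 0.840 and 1.24 CPM at day 56, so only normoxia replicates 2 and 3 stood apart. Cenpe and Cenpf overlapped in all 3 comparisons.

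Within the 2 header series that hold both normoxia and day 56 libraries, the day 56 difference had opposite signs for 16 of the 43 members. The series with normoxia replicate 1 holds only that library and day 56 replicate 1, so its differences carry no measure of spread. Of the 27 G2 and mitosis members, 17 were negative in the series with normoxia replicate 1 and 22 in the other, and of the 16 replication members, 7 and 8 were. In log2(CPM + 0.5), first for the series with normoxia replicate 1 and then for the other, values of opposite sign were 0.51 and -0.73 for Ube2c, 1.17 and -0.4 for Pcna, 0.08 and -0.64 for Tk1 and 0.21 and -0.58 for Cenpw. Most other members had the same sign in both series, and 7 picked from those named above are given in the same order. The difference was -0.43 and -0.95 for Ccnb1, -0.61 and -1.22 for Cdc20, -0.44 and -0.84 for Ndc80, and 0.42 and 0.61 for Mcm5. For Rrm1 it was -0.12 and -0.99, for Hmmr -0.42 and -0.96, and for Gins2 0.22 and 0.49. For these 7 genes the difference was smaller in size in the series with normoxia replicate 1. It was larger in size there for Tpx2, Rrm2, Top2a, Kif20a, Kif23, Nusap1, Tyms and Mcm7, which also had the same sign in both series. The 7 genes therefore do not stand for all members of the same sign.

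Mki67, which coats mitotic chromosomes and is the usual marker of proliferating cells, was at 26.4, 45.9 and 52.9 CPM in normoxia, 27.2, 40 and 23.4 CPM at day 28, and 26.4, 35.6 and 26.6 CPM at day 56. Normoxia replicate 1 lay with the treated libraries, and normoxia replicates 2 and 3 lay above all of them. Mki67 was called at neither day with all 9 libraries, and at both days without normoxia replicate 1. Top2a, the topoisomerase that untangles chromosomes, was at 4.87 to 8.24, 3.24 to 8.89 and 3.54 to 6.6 CPM, with overlapping groups.

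The 3 members with the largest day 28 differences were lowest in the group where the red cell markers were lowest. These members were picked by that difference, so being lowest at day 28 follows from the choice. The part of red cell RNA in their values was not tested. The summed erythroid markers were at 3500, 7330 and 9160 CPM in normoxia, 141, 375 and 2120 CPM at day 28, and 4060, 4610 and 4450 CPM at day 56. Tk1, Ube2c and Cenpw were likewise lowest at day 28 and, within normoxia, lowest in replicate 1 and highest in replicate 3. Within day 28 the erythroid sum, Tk1 (9.92, 16.6 and 24.6 CPM) and Ube2c (0.425, 0.965 and 3.49 CPM) rose from replicate 1 to replicate 3. Cenpw did not follow that order (0.372, 0.482 and 0.480 CPM). The order within normoxia was not particular to these 3 members, as replicate 1 was lowest in 31 and replicate 3 highest in 27 of the 43 members. Summed platelet markers had it too (768, 3190 and 3430 CPM), and their mean was lowest at day 28 (814 CPM, against 2460 in normoxia and 2530 at day 56). All 14 erythroid markers had a negative log2 fold change at day 28, and 12 of them lay below normoxia without overlap, against 11.8% of all genes. With the log2 globin share of each library as a covariate, the day 28 log2 fold change was -2.64 for Cenpw (adjusted p = 0.79), -1.37 for Tk1 (adjusted p = 0.79) and -0.65 for Ube2c (adjusted p = 0.801), all with edgeR. With the intron share as the covariate the values were -1.72, -0.79 and -0.31, each at an adjusted p of 1. For Ccnb1 the 2 covariates gave -1.56 and -1.13, and for Ndc80 -1.09 and -0.76. These covariates differ between the groups, so a fit with them also removes part of the group difference. With either of them no member was called at day 28, where 1 of all 12447 genes was called higher and 0 lower.

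**Figure D4:**
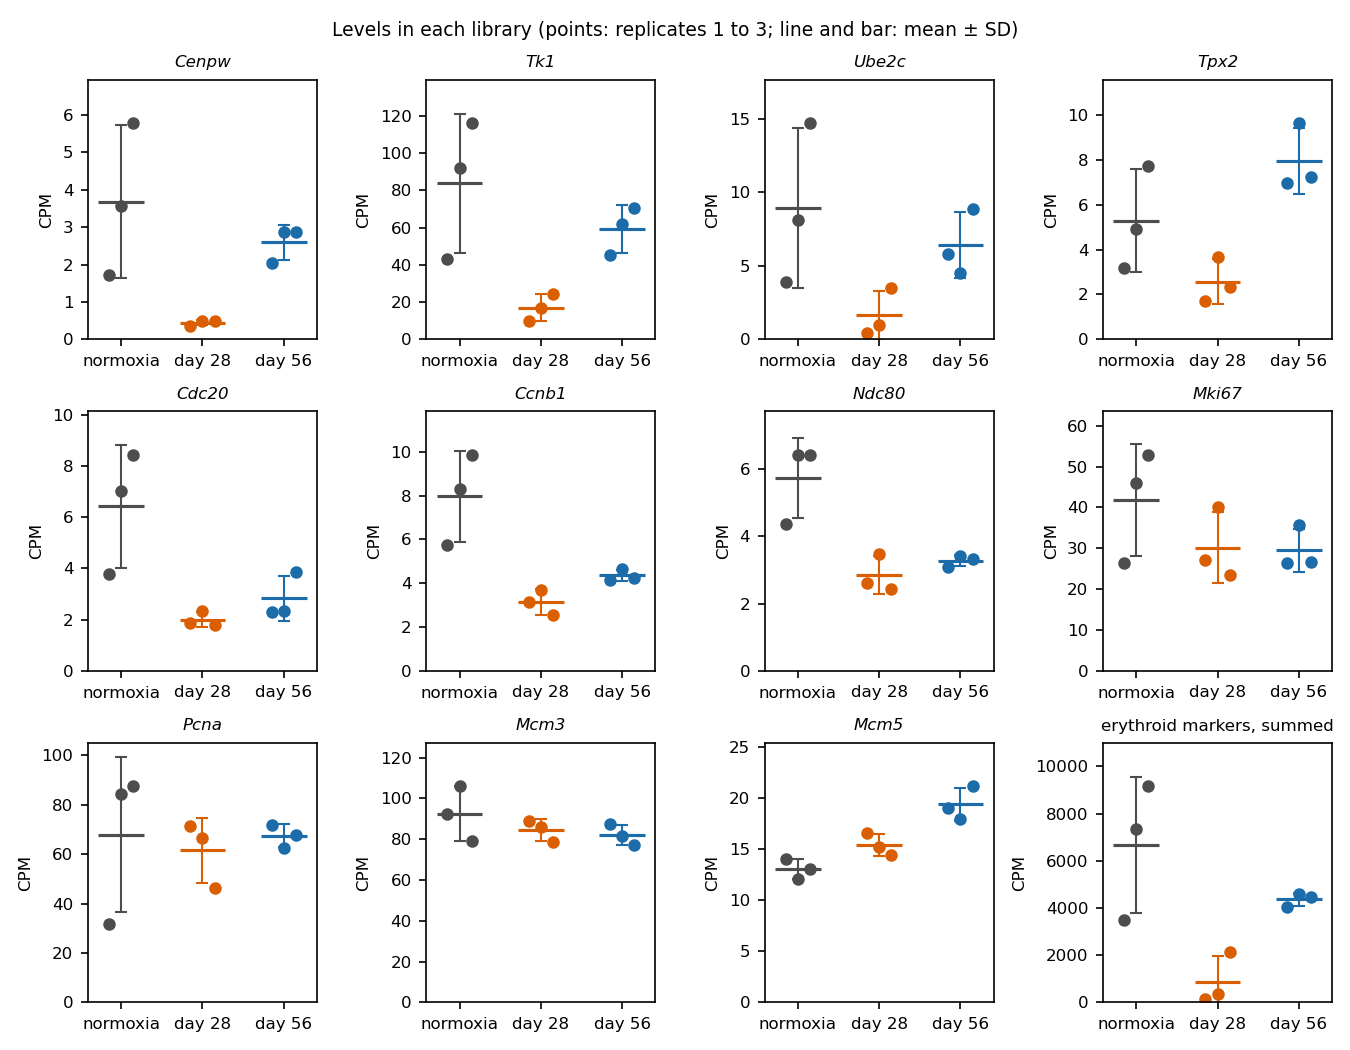
CPM (y axis, from 0) in each of 9 libraries by group (x axis) for 11 members and for the sum of 14 erythroid markers, with points for replicates 1 to 3 and a line and bar for the mean ± SD (n = 3, bars end at 0). Cenpw, Tk1 and Ube2c, picked for their day 28 differences, are lowest at day 28, and so is the erythroid sum. Cdc20, Ccnb1 and Ndc80 are lower at both days, and Mcm5 is highest at day 56.

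Reads in the introns of the members showed another order. Introns of the 16 replication members gave 77.8, 81.6 and 68.4 CPM in normoxia, 145, 131 and 72.1 CPM at day 28, and 170, 128 and 119 CPM at day 56, while their exons gave 406, 574 and 560 CPM, then 403, 401 and 392 CPM, then 448, 455 and 487 CPM. Their intron level was thus above normoxia in every day 56 library, and their exon level at day 28 was below it in every library. The latter margin was narrow, at 403 against 406 CPM for normoxia replicate 1. It depended on Tk1, which alone gave 43.1 CPM in normoxia replicate 1 and 9.92, 16.6 and 24.6 CPM at day 28. Introns of the 27 G2 and mitosis members gave 36.7, 26.5 and 28.0 CPM in normoxia, 45.8, 47.5 and 29.3 CPM at day 28, and 41.3, 37.1 and 30.6 CPM at day 56, with groups that overlapped. The intron share of whole libraries also differed between the groups, as given above, and its part in these values was not tested.

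The inhibitors of the cyclin-dependent kinases, a list outside the 44 genes, held 1 call that every alternative kept. Cdkn1a (p21), which binds and blocks cyclin-kinase complexes and PCNA, was at 1.00, 1.10 and 0.649 CPM in normoxia, 8.59, 9.62 and 2.27 CPM at day 28, and 13.7, 11.3 and 16.2 CPM at day 56. All 6 treated libraries lay above the 3 normoxia libraries, and day 28 replicate 3 was the lowest of the treated ones. Cdkn1a rose at day 56, with a log2 difference from normoxia of 3.87 (SE 0.52, adjusted p = 0.00624 with edgeR), and the call was kept in all 20 alternatives, with values from 3.36 to 4.02 and adjusted p up to 0.0346. Within the header series it was 3.24 and 3.37 in log2(CPM + 0.5). At day 28 its log2 fold change was 2.87 (SE 0.51, adjusted p = 0.0539 with edgeR), which passed in 7 of 19 alternatives. Those included leaving out normoxia replicate 1 (adjusted p = 0.00742) or day 28 replicate 3 (adjusted p = 0.00251), and the value was 1.24 with the globin share and 1.58 with the intron share as covariate. Of the 5 inhibitors tested, Cdkn1a was the 1 called. Cdkn1b (p27) was at 98.5, 71.6 and 61.7 CPM in normoxia, 80.8, 69.4 and 107 CPM at day 28, and 136, 114 and 100 CPM at day 56 (day 56 log2 fold change 0.60, SE 0.23, adjusted p = 0.121 with edgeR). Leaving out normoxia replicate 1 gave 0.83 with an adjusted p of 0.0141, and no other library left out made Cdkn1b pass. Cdkn1c (p57) and Cdkn2b (p15) had at most 22 and 19 reads per library, with day 56 log2 fold changes of 1.05 (adjusted p = 0.144 with edgeR) and 1.29 (adjusted p = 0.161 with edgeR). For Cdkn1b, Cdkn1c and Cdkn2b, too, every day 56 library lay above every normoxia library. Cdkn2c (p18) was at 2.62 to 5.13, 1.89 to 3.86 and 3.28 to 4.18 CPM, with overlapping groups. Cdkn2a had no more than 8 reads in any library and was not tested, and Cdkn2d was not matched and not analysed here.

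In the other cell cycle lists, day 56 calls came to 1 of 18 regulators, 1 of 51 replication genes and 2 of 71 mitotic genes. The background at day 56 was 3.42% of all genes called higher and 3.7% lower, so these counts are near or below it and say nothing particular about the lists. None of the D cyclins Ccnd1, Ccnd2 and Ccnd3, which open G1, or of their kinases was called. Ccnd3 had the highest level at 99.0, 106 and 127 CPM in normoxia, 109, 127 and 109 CPM at day 28, and 93.2, 129 and 140 CPM at day 56, Ccnd2 was at 10.2 to 24.7, 18.3 to 28.0 and 20.8 to 22.6 CPM, and Ccnd1 at 0.810 to 4.35, 1.68 to 2.31 and 1.61 to 2.27 CPM. Of 18 E2F, Myb and MuvB regulators tested, only E2f7 was called, higher at day 56 (log2 fold change 2.37, SE 0.55, adjusted p = 0.0374 with edgeR). This repressor of E2F targets had 4, 2 and 2 reads in normoxia, 14, 22 and 9 at day 28, and 11, 23 and 17 at day 56, so its fold change rests on counts at the floor and depends on the prior count of the fit. The call of E2f7 was lost in 11 of 20 alternatives, among them leaving out normoxia replicate 2 or 3, day 28 replicate 1 or any day 56 library, with adjusted p from 0.0548 to 0.155 in those fits. Of 51 other replication and S phase genes, 0 were called at day 28 and 1 at day 56. It was Fen1, the nuclease that trims Okazaki fragments, at 5.83, 5.74 and 3.76 CPM in normoxia, 8.43, 6.35 and 7.04 CPM at day 28, and 10.9, 10.8 and 11 CPM at day 56. The 3 groups of Fen1 did not overlap, and the day 56 rise was 1.08 in log2 (SE 0.22, adjusted p = 0.0238 with edgeR). The call was lost without normoxia replicate 2 or 3 or without any day 56 library, with values of 0.91 to 1.17 and adjusted p up to 0.101. Of 71 other G2 and mitosis genes tested, 0 were called at day 28 and 2 at day 56. Ska3, of the outer kinetochore, rose by 1.04 in log2 (SE 0.26, adjusted p = 0.044 with edgeR) from 1.62, 1.36 and 1.75 CPM to 3.99, 2.86 and 2.85 CPM. Smc2, of the condensin ring, fell by 0.63 in log2 (SE 0.14, adjusted p = 0.0343 with edgeR) from 23.9, 22.7 and 23.5 CPM to 15.8, 15.6 and 13.7 CPM. Within the header series, in the same order, the day 56 difference was 0.84 and 1.14 for Fen1, 1.08 and 0.71 for Ska3, -0.58 and -0.64 for Smc2, and 0.45 and 1.06 for E2f7. The Ska3 call was lost in 14 and the Smc2 call in 12 of 20 alternatives. Without normoxia replicate 1 both calls were kept, as was the Smc2 call without day 28 replicate 3, and the fits that left out any other library had adjusted p of 0.0599 to 0.166 for Ska3 and 0.0537 to 0.146 for Smc2. The median log2 fold changes of the 71 genes were -0.25 at day 28 and -0.32 at day 56, and of the 51 genes -0.20 and -0.18, against -0.01 and -0.04 over all genes.

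**Figure D5:**
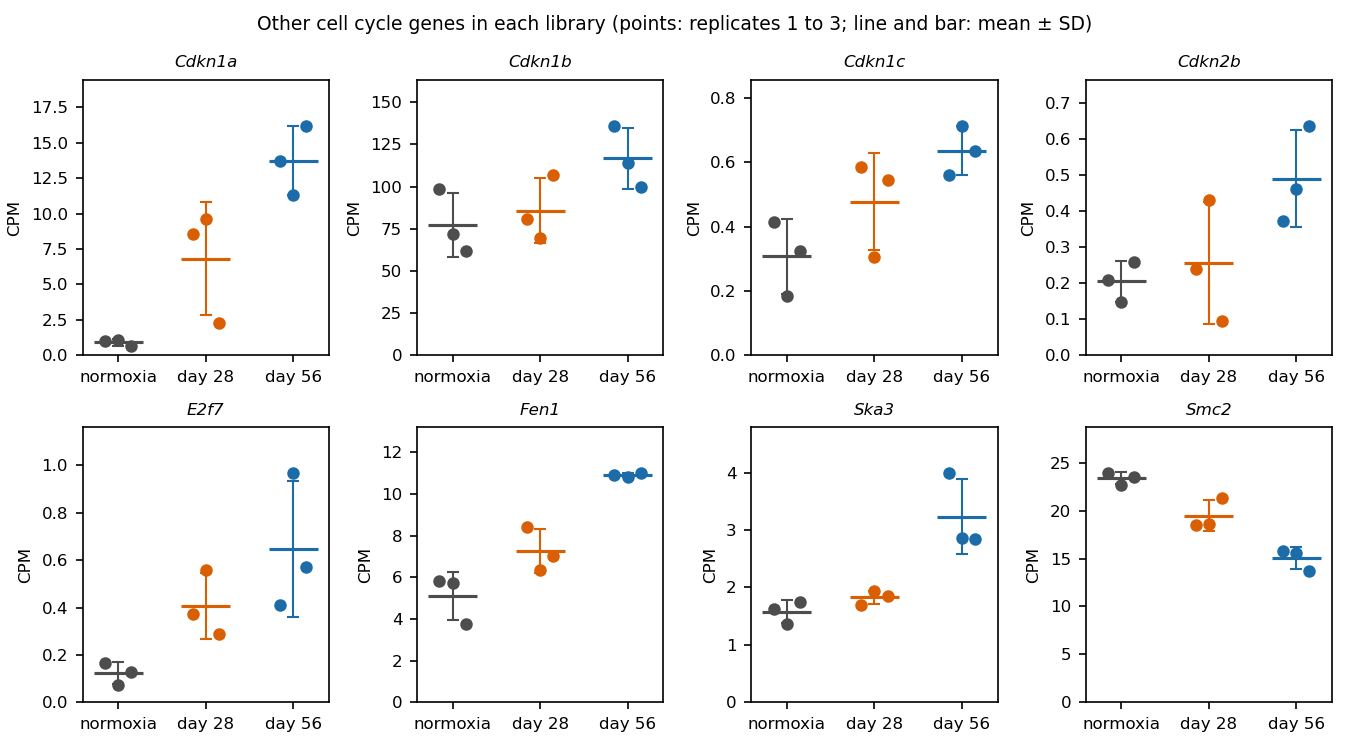
CPM (y axis, from 0) in each of 9 libraries by group (x axis) for 8 cell cycle genes outside the member list, with points for replicates 1 to 3 and a line and bar for the mean ± SD (n = 3). Cdkn1a is above normoxia in all 6 treated libraries, Fen1 and Ska3 are highest and Smc2 lowest at day 56, and E2f7, Cdkn1c and Cdkn2b stand on few reads.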

How the data were processed

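The authors deposited 1 table for the series. Its columns are, per the file headers, RPKM and 3 classes of read per library and Ensembl gene: in exons, in exons and mapped uniquely, and in exons or introns. The exon reads deposited by the authors are raw counts. Some deposited columns count as estimated counts because a broken line left a fraction in them, but all are whole on the intact lines. RPKM values were computed by the authors from exon reads, exon length and mapped reads, per the file headers, and were used here only to compare levels between genes. Per the submitters' processing notes the build was rn6 and FastQC was used. The aligner is not given in the sources used here. Of 22085 lines, 8 were broken and left out, and 90 further columns of values per sample were not used.

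Exon counts were tested with edgeR 4.0.16 in R 4.3.3 (robust glmQLFit and glmQLFTest, TMM factors, default filterByExpr), with 1 mean per group over 9 libraries and a Benjamini-Hochberg threshold of 0.05 over 12447 genes. The standard error (SE) was derived from the F statistic. DESeq2 1.42.0 was an alternative. The fit was tested on simulated counts. The 9 pairs of libraries within groups differed by more than sampling noise. Reads carry no molecular identifiers, so floors cover counting error only. The common biological coefficient of variation was 0.28.

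The members and lists were chosen with earlier results of these data known. Values are given for every called member and the member with the highest mean CPM of each role group, for the called genes of each pathway list (up to 6 per comparison) and for all CDK inhibitors and D cyclins. Tk1, Cdc20, Mcm5, Mcm7, Gins2, Rrm1, Birc5, Plk1, Tpx2, Hmmr, Nuf2 and the members given as ranges were added after their values were seen. Alternatives were other scaling, no filter, other read classes, no globin-locus genes, covariates, a replicate block, a block by header code series (added after the data were seen) and each library left out in turn.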

Additional observations from a re-analysis of the deposited data

How the results depend on the processing

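The counts of members called were 1 at day 28, 0 at day 56 and 1 between the treated groups. Over the 9 fits that left out 1 library they ranged from 0 to 12, from 0 to 12 and from 0 to 3. At day 28 the other alternatives gave 0 (RLE size factors, exon plus intron reads, and either covariate), 2 (uniquely mapped reads), 3 (upper-quartile factors, no filter on low counts) and 6 (DESeq2), and 1 without globin-locus genes. Over all genes, the main fit called 5 lower, and these fits called 0 (RLE size factors, either covariate) or 4 (exon plus intron reads). They called 43 with uniquely mapped reads, 48 with upper-quartile factors, 92 with no filter, 888 with DESeq2 and 5 without globin-locus genes. At day 56 they gave 1 with RLE size factors or without globin-locus genes (Mcm5 in both), 2 with exon plus intron reads (Mcm5 and Ccnb1), 8 with DESeq2, and 0 in the rest. Over all genes, 439 were called higher with RLE size factors and 418 without globin-locus genes. Exon plus intron reads gave 562 higher and 576 lower, and the rest 93 to 418 higher and 45 to 471 lower. Between the treated groups they gave 4 with DESeq2, 0 with exon plus intron reads or the globin covariate, and 1 in the rest. That 1 was Tk1 with the intron covariate and Cenpw otherwise. Higher calls over all genes came to 585 with DESeq2, 33 with exon plus intron reads, 0 with the globin covariate and 46 to 63 in the rest. The replicate block gave 3 at day 28, 0 at day 56 and 4 between the treated groups. Over all genes it called 171 lower at day 28, 307 higher and 233 lower at day 56, and 162 higher between the treated groups. Correlations of same-numbered deviations were small, at 0.17, -0.06 and -0.06, then 0.07, -0.15 and 0.15, then 0.05, 0.16 and 0.07 for the 3 comparisons. With 3 libraries a group they cannot settle whether replicate numbers pair the libraries. The block also called more of all genes than the main fit at day 28 and between the treated groups, and fewer at day 56. With the header code series as a block, 0 members were called at day 56, where 466 of all genes were called higher and 321 lower. The median over the members ranged from -0.63 (without day 28 replicate 2) to -0.11 (intron covariate) at day 28, from -0.33 to -0.03 at day 56 and from 0.09 to 0.32 between the treated groups. Of 643 gene values under alternatives, 1 reversed, the day 56 log2 fold change of Cenpw at 0.17 under the intron covariate. The cause of these shifts was not tested. With 3 libraries a group and as few as 14 reads for Cenpw in a library, a difference that was not called may still be present. No detection limit was computed.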
